A study of Mus musculus with 34 samples.

Results

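Promoters that carried trimethylated lysine 4 of histone H3 (H3K4me3) in unstimulated bone marrow-derived dendritic cells (BMDCs) were compared between cells that kept CTCF (WT) and cells that had lost it (KO). A promoter was the start site of the longest transcript of a protein-coding gene with 2.5 kb to either side, and it counted as marked where an H3K4me3 peak covered at least 1 bp of it. On chromosomes 1 to 19 there were 20807 such promoters in the mm10 build, out of 21938 with chromosomes X and Y. Of these, 12393 carried a peak in at least 1 of the 2 lists, 11839 in both, 219 in WT only and 335 in KO only, and 8414 carried none.

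H3K4me3 is laid down at the start sites of genes that are transcribed or ready for transcription, and is the standard mark of a promoter. CTCF is a zinc finger protein that binds a long DNA motif and halts the cohesin ring, of which SMC1 is a subunit, so that chromatin loops and domain borders form. Acetylation of lysine 27 of H3 (H3K27ac) marks active promoters and enhancers, whereas trimethylation of the same residue (H3K27me3) is the mark of Polycomb repression. Promoters that carry both H3K4me3 and H3K27me3, often rich in CpG dinucleotides, are called bivalent and belong largely to developmental genes. Monomethylation of lysine 4 (H3K4me1) surrounds enhancers and flanks promoters.

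The mice were C57BL/6 and 8 weeks old by the labels. WT cells had the genotype CreER, with both Ctcf alleles intact, and KO cells CreER;CTCF fl/fl, so both genotypes carried the tamoxifen-inducible recombinase, expressed from the ubiquitous Rosa26 locus and not restricted to dendritic cells. Marrow was cultured in GM-CSF for 6 days, with 4-OH tamoxifen given on the first day. The WT and KO lists came from cells without LPS, and the WTLPS and KOLPS lists from cells of the same 2 genotypes given LPS at 100 ng/ml for 3 h. Tamoxifen thus reached marrow precursors and not finished dendritic cells, and in bulk cells a mark on fewer cells and a weaker mark on every cell cannot be told apart.

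There was 1 peak list for each antibody and condition, so no difference between conditions had a replicate check and no test was possible. Intervals are 95% Wilson intervals, which cover counting error over promoters only. The 4 H3K4me3 lists held between 20960 and 25460 peaks, with a background of 1.13 to 1.23 fragments per base, KOLPS being the shortest list with the lowest background. Of these, 24135 were called in WT, with 42.8 Mb covered on chromosomes 1 to 19, and 25460 in KO, with 44.7 Mb. Of 35 genes of dendritic and myeloid identity, 33 carried H3K4me3 in both genotypes, among them Itgax, Cd74 and Irf4, while Cd209a and Xcr1 were unmarked. Markers of other cells were mostly unmarked, with peaks at 2 of 10 T cell, 2 of 8 B cell, 1 of 7 NK cell, 4 of 12 neutrophil, 3 of 9 erythroid, 2 of 10 mast cell, 4 of 8 fibroblast and 4 of 7 neuronal or epithelial genes, every one of these in both lists. A further epithelial gene, Krt8, was KO only. The promoter of the deleted gene, Ctcf, had H3K4me3 in all 4 lists, over 4723 bp in WT, 4559 bp in KO, 4084 bp in WTLPS and 3774 bp in KOLPS, and its CTCF peak was in the WT list and not in the KO list.

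The sequences just upstream of 4 start sites are shown because H3K4me3 there was found in 1 genotype both before and after LPS, as a peak of its own. Slamf9, Elavl4 and Bend5 had the strongest such peaks, and Cstl1 had a narrow one inside a CTCF peak. Each is the 250 bp before the start in the direction of the gene, 5′ to 3′, with every CpG in capitals, and none overlaps an annotated exon. Slamf9 is at chr1:172475108-172475357 (mm10, plus strand), Cstl1 at chr2:148750108-148750357 (plus strand), Elavl4 at chr4:110286890-110287139 (minus strand, within the Elavl4 gene itself, which has a start further upstream) and Bend5 at chr4:111414756-111415005 (plus strand, inside the gene Agbl4).
Slamf9, WT only: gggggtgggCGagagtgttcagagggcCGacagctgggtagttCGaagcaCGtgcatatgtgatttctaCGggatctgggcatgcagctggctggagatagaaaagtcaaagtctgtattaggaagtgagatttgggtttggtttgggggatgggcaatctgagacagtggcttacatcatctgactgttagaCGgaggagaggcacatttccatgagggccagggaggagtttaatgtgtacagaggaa
Cstl1, WT only: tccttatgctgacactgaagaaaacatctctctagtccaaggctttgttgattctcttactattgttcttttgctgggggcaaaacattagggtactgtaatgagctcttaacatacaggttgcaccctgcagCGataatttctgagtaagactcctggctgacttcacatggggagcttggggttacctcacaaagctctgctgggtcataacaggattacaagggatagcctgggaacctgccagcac
Elavl4, KO only: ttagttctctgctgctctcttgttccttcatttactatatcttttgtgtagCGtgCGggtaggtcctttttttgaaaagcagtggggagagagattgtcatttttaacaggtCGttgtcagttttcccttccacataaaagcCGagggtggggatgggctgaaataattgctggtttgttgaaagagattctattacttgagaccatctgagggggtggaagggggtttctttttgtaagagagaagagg
Bend5, KO only: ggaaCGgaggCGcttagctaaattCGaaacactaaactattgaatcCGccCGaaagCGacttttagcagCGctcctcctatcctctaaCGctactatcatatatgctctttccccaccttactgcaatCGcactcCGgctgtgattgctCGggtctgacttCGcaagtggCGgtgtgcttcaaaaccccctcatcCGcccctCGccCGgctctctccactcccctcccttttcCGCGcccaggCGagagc
The Bend5 stretch held 19 CpG at an observed over expected ratio of 1.07, against 6 for Slamf9 (ratio 0.461), 4 for Elavl4 (ratio 0.386) and 1 for Cstl1 (ratio 0.0743). Bend5 thus had the composition of a CpG island, and the others did not.

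Nearly all promoters marked in one genotype were marked in the other. A KO peak was present at 98.2% of the 12058 WT promoters (95% interval 97.9 to 98.4), and a WT peak at 97.2% of the 12174 KO promoters (96.9 to 97.5). WT only promoters were 1.05% and KO only promoters 1.61% of all those examined. The 554 promoters that differed by genotype were set beside the other pairs of lists over the same promoters. WTLPS and KOLPS differed at 561, WT and WTLPS at 401, and KO and KOLPS at 454, so the number that differed by genotype was of the order of the number that differed by 3 h of LPS. WT only promoters formed 212 regions and KO only promoters 331 regions when overlapping windows were joined, since neighbours such as Klrb1b and Gm44511 share a promoter.

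Genes that dendritic cells depend on were mostly marked in both genotypes, as were 56.9% of all promoters. All 18 genes of GM-CSF and STAT5 signalling on the list examined, including Csf2ra, Jak2 and Stat5a, had H3K4me3 in both lists, as did 29 of 30 cell cycle genes and 72 of 75 ribosomal protein genes. The unmarked cell cycle gene, Mcm2, and the unmarked Ash2l and Dpy30, which encode subunits of the enzymes that methylate H3K4, are genes used by most cells. No peak lay within 2.5 kb of the start of their longest annotated transcript, so for some genes the class rests on the start site chosen. Of 35 genes of the LPS response, 24 were marked in both and 9 in neither, and the remaining 2, Il27, a cytokine subunit of activated myeloid cells, and Saa3, an acute phase protein, were WT only (5.71%, against 1.05% of all promoters).

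The peaks of the WT only and KO only classes were weak, which describes the values that chose them. The strongest peak at a WT only promoter had a median −log10 q of 4.68 (quartiles 3.29 to 7.07), and at a KO only promoter 4.28 (3.38 to 6.68). At promoters marked in both, the medians were 82.4 in WT and 72.8 in KO. In fragments, the median height at the summit was 10 in WT only, 9 in KO only, and 64 (WT list) or 58 (KO list) at promoters marked in both. Only 39 of 219 WT only and 43 of 335 KO only promoters had a −log10 q of 10 or more. Just inside the classes lay Wnt3 (1.52), Gm14295 (1.67) and Olfr432 (1.67) for WT only, and Clgn (1.41), D430019H16Rik (1.44) and Nr0b2 (1.44) for KO only, with 6 or 7 fragments each. Just outside lay Actn2, Alx4 and Abhd16b, with 6 or 7 fragments in WT, and Bfsp1, Fam110c and Pf4, with 6 in KO, which counted as marked in both.

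**Figure D1:**
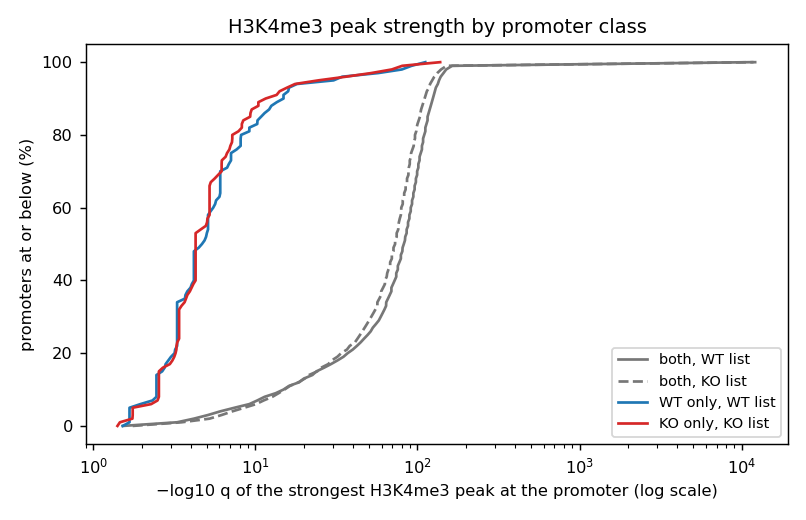
Share of promoters (%) with a strongest H3K4me3 peak at or below a given −log10 q (log scale), for promoters marked in both lists and in 1 list only. The WT only and KO only curves lie together at medians of 4.68 and 4.28, far to the left of the promoters marked in both.

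Among the strongest members, the class was mostly a matter of where a peak ended. Of the 12 WT only promoters with the highest −log10 q, 11 were touched by the end of a peak that the KO list also held outside the window, and Slamf9 was the exception. All 12 of the strongest KO only promoters were of this kind. Over the classes, 15 of 219 WT only and 21 of 335 KO only promoters were. At Pdap1 a WT peak of 81 fragments covered 285 bp of the window while the nearest KO peak ended 2703 bp from the start, and at Car5a the overlap was 3 bp. At Atg3, which encodes an enzyme of autophagy, the KO peak covered 2775 bp of the window and the nearest WT peak ended 2879 bp away. KOLPS covered 1768 bp there and WTLPS none, so this window was marked only in the cells without CTCF in both states. The summit of the strongest KO peak lay 6299 bp from the start used, outside the window. A KO peak in the window was shared with WT outside it, so the gene itself was not unmarked in WT. Without these promoters the shares of every mark given below stayed within their intervals.

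The lists from LPS-treated cells took no part in defining the classes and show how often the difference recurred. Of WT only promoters, 149 of 219 (68.0%, 61.6 to 73.9) had a peak in WTLPS and 46 (21%, 16.1 to 26.9) in KOLPS. Among KO only promoters 186 of 335 (55.5%, 50.2 to 60.8) had a peak in KOLPS and 127 (37.9%, 32.9 to 43.2) in WTLPS. Over all promoters 58.3% were marked in WTLPS and 57.5% in KOLPS.

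A peak in WTLPS without one in KOLPS, the same difference as before LPS, was found at 108 WT only promoters (49.3%, 42.8 to 55.9), against 1.76% of all promoters. The converse, a peak in KOLPS and none in WTLPS, was found at 95 KO only promoters (28.4%, 23.8 to 33.4), against 0.932% of all. Both LPS lists marked 41 WT only and 91 KO only promoters (56.6% of all), and neither marked 65 and 113 (40.7% of all). The opposite difference appeared at 5 WT only promoters (2.28%, 0.979 to 5.23), against 0.932% of all. At KO only promoters it appeared at 36 (10.7%, 7.86 to 14.5), against 1.76% of all, so it too was above the share of all promoters. LPS lists of a genotype came from the same kind of culture, and whether they came from the same animals is not stated. The difference recurred more often at stronger peaks. Without the promoters whose peak was shared outside the window, it was 42.2% (33.6 to 51.3) of 116 WT only promoters with a −log10 q under 5 and 76.9% (57.9 to 89) of 26 with 10 or more. For KO only promoters the same values were 21.9% (16.5 to 28.4) of 183 and 42.3% (25.5 to 61.1) of 26, with overlapping intervals.

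**Figure D2:**
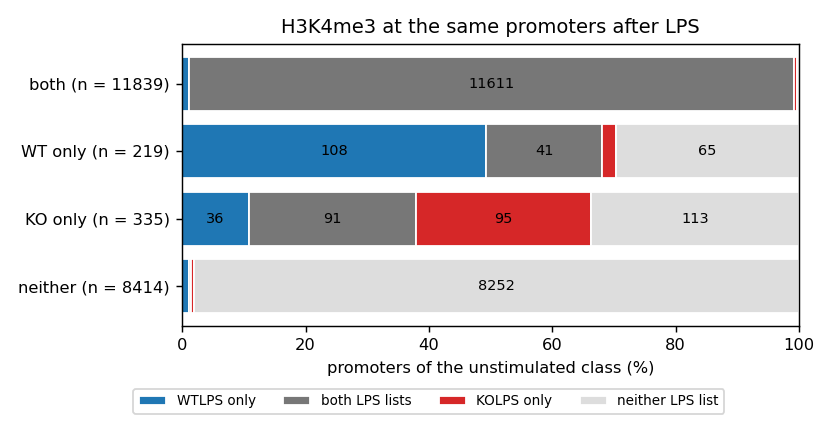
Share (%) of the promoters of each unstimulated class with an H3K4me3 peak in WTLPS only, in both LPS lists, in KOLPS only or in neither, with the number of promoters printed in the wider segments. Among WT only promoters 108 kept the difference and 5 had the opposite one, and among KO only promoters 95 kept it and 36 had the opposite one.

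Slamf9, a cell surface receptor of the SLAM family found on myeloid cells, had the strongest WT only peak of its own (start at position 172475358 of chromosome 1). The WT peak covered 2445 bp of the window with 35 fragments at the summit, 16.1-fold over background. WTLPS covered 2316 bp with 28 fragments, and both KO and KOLPS covered none. The nearest KO peak began 6003 bp downstream, where WT also had one. H3K27ac remained at the promoter in KO, over 3218 bp against 4826 bp in WT, and SMC1 peaks were there in both genotypes with no CTCF peak in either.

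Several other WT only promoters that recurred after LPS belong to receptors and other genes of immune cells, though their peaks were not the next in strength. Ifitm1, an interferon-induced membrane protein that restricts viruses, was covered over 1776 bp in WT (19 fragments) and 1451 bp in WTLPS (16 fragments), and over 0 bp in KO and KOLPS. Its CTCF and SMC1 peaks were in the WT lists and not in the KO lists. Tlr1, a Toll-like receptor for bacterial lipopeptides, was covered over 1219 bp in WT and 1837 bp in WTLPS and by no peak in KO or KOLPS. Havcr2, the inhibitory receptor Tim-3, was covered over 1182 bp in WT and 315 bp in WTLPS, and Klrb1b, a C-type lectin, over 1504 and 1572 bp, again with 0 bp in KO and KOLPS. At Tlr1, Havcr2 and Klrb1b H3K27ac was present in both genotypes, over fewer bases in KO. Tlr1, Havcr2 and Klrb1b were chosen after their values were seen, as were Cxcr2 and Clec10a, further receptors with the same pattern.

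The next in strength after Slamf9 were genes of other roles. Hsd3b7, an enzyme of bile acid synthesis, was covered over 1129 bp in WT (27 fragments) and 881 bp in WTLPS (18 fragments), beside a CTCF peak present in both genotypes. Hdac5, a histone deacetylase, was covered over 1247 bp in WT and 1748 bp in WTLPS, without CTCF or SMC1. Msl3l2 had 1336 bp in WT and 1032 bp in WTLPS, and its 3 WT CTCF peaks and 1 SMC1 peak were absent from KO. Cstl1 and 2410004P03Rik had narrow peaks, of 367 and 398 bp in WT, each with a CTCF peak in both genotypes. At Cstl1 the H3K4me3 peak lay 1760 to 2126 bp downstream of the start, within the CTCF peak.

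Elavl4 and Bend5 had the strongest KO only peaks of their own among those that recurred after LPS. Elavl4 encodes a neuronal RNA-binding protein (start at position 110286889 of chromosome 4). KO covered 3994 bp of its window with 36 fragments, 16.8-fold over background, and KOLPS covered 3376 bp with 29 fragments. WT and WTLPS had no peak there, and the nearest WT peak was 64405 bp away. H3K27ac was present in KO alone, as 4 peaks over 1261 bp, and H3K27me3 covered 177 bp in WT and 0 bp in KO, so Elavl4 differed from most of its class in both marks. Bend5, about a megabase from Elavl4 on the same chromosome, was covered over 2882 bp in KO (30 fragments) and 1149 bp in KOLPS (20 fragments), and over 0 bp in WT and WTLPS. No H3K27ac was called at Bend5, and H3K27me3 covered 2113 bp in WT and 1849 bp in KO. Neither gene had a CTCF or SMC1 peak in its window in WT or KO.

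**Figure D3:**
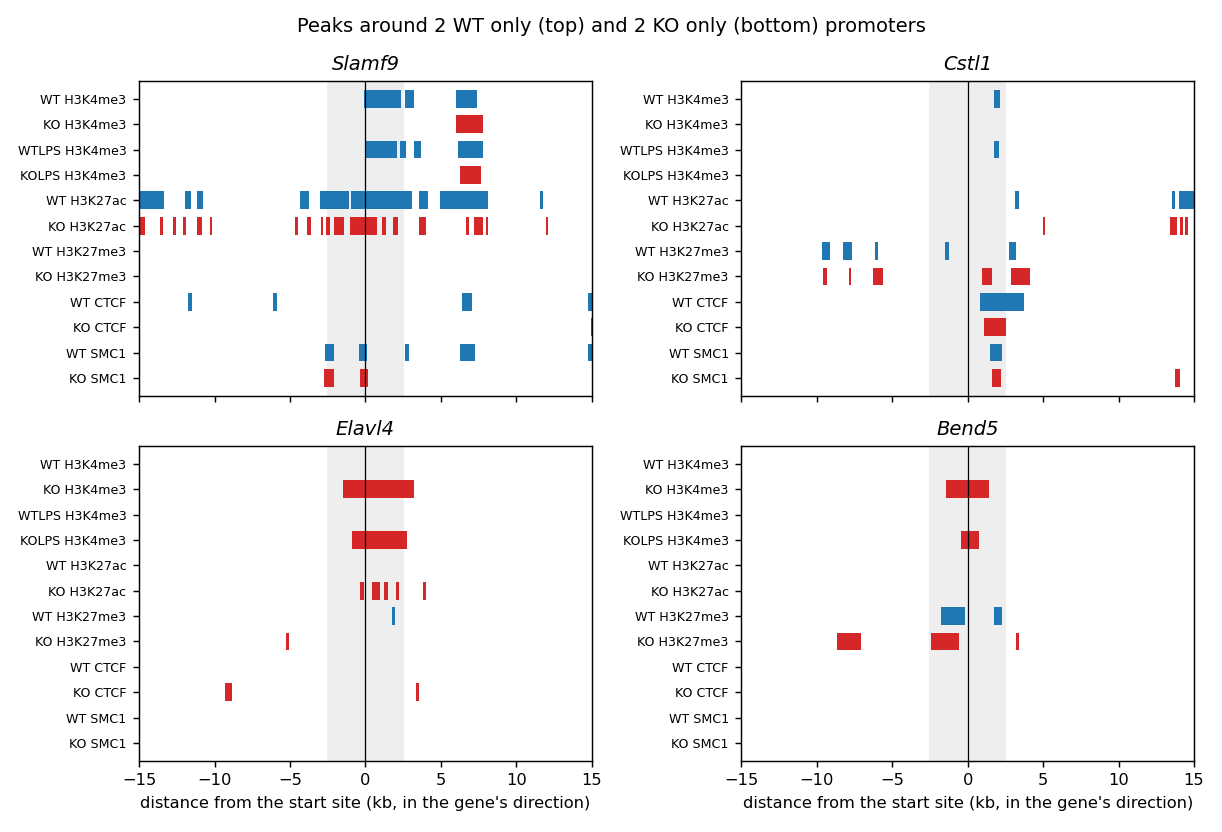
Peaks within 15 kb of the start sites of Slamf9 and Cstl1 (WT only, top) and Elavl4 and Bend5 (KO only, bottom), 1 line per list, WT lists in blue and KO lists in red, with distance in kb in the direction of the gene and the promoter window of 2.5 kb to either side in grey. H3K4me3 covers 2445 bp of the Slamf9 window in WT and 3994 bp of the Elavl4 window in KO, with no H3K4me3 peak of the other genotype in either window.

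Further KO only promoters of this kind were Lrfn3, a synaptic adhesion protein, with 1488 bp in KO and 469 bp in KOLPS, Nid1, a basement membrane protein, with 1262 and 583 bp, and Osbpl5, a lipid transfer protein, with 1239 and 1060 bp. Ccbe1, a secreted protein of lymphatic development, had 1419 bp in KO and 874 bp in KOLPS. WT and WTLPS covered 0 bp at each of these genes. H3K27me3 was present at each of them in WT and in KO, and H3K27ac at none. Slamf1, another SLAM receptor, was also KO only before and after LPS, with 2540 bp in KO and 1193 bp in KOLPS, the reverse of Slamf9 and chosen after its values were seen.

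H3K27me3 was most frequent at KO only promoters. It was present in WT at 265 of 335 KO only promoters (79.1%, 74.4 to 83.1), at 121 of 219 WT only promoters (55.3%, 48.6 to 61.7) and at 24.0% (23.2 to 24.7) of those marked in both, against 28.1% of all promoters. In KO the shares were 79.7%, 54.8% and 23.9%, against 28.7% of all. H3K27me3 was in WT and not in KO at 10 KO only (2.99%) and 10 WT only promoters (4.57%). The same held at 3.98% of both and 5.18% of unmarked promoters. The converse was found at 12 KO only (3.58%) and 9 WT only promoters (4.11%), and at 3.95% of both and 6.69% of unmarked ones. As shares of a whole class, gains and losses of H3K27me3 were thus no higher in these 2 classes than at unmarked promoters. Only promoters without the mark in WT could gain it, and only those with it could lose it. At unmarked promoters 31.3% carried it in WT, so these shares do not compare gains or losses where they were possible. Among the 95 KO only promoters that recurred after LPS, 88 carried H3K27me3 in WT (92.6%, 85.6 to 96.4).

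H3K27ac had the opposite order. In WT it was present at 75.4% (74.6 to 76.2) of promoters marked in both, 24.7% (19.4 to 30.8) of WT only and 6.87% (4.62 to 10.1) of KO only promoters, against 45.5% of all. In KO the shares were 76.6%, 26.0% and 7.76%, against 45.9% of all. Unmarked promoters carried it at 5.4% in WT and 4.66% in KO. Here too the genotypes gave like shares. H3K27ac was in WT and not in KO at 5 WT only (2.28%) and 6 KO only promoters (1.79%). The same held at 3.72% of both and 2.19% of unmarked promoters. The converse was found at 8 WT only (3.65%) and 9 KO only promoters (2.69%), and at 4.95% of both and 1.45% of unmarked ones. H3K4me1 was present in WT at 54.3% of WT only and 36.4% of KO only promoters (59.0% of all), and in KO at 51.1% and 43.9% (58.7% of all).

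CTCF was present in WT at 96 of 219 WT only promoters (43.8%, 37.4 to 50.5), at 42.7% (41.8 to 43.5) of promoters marked in both and at 83 of 335 KO only promoters (24.8%, 20.5 to 29.7), against 30.6% of all. The intervals of WT only promoters and of promoters marked in both overlapped. In KO the shares were 13.2%, 32.0% and 7.76%, against 20.0% of all. CTCF was called in WT and not in KO at 31.1% (25.3 to 37.5) of WT only, 21.7% (20.9 to 22.4) of both and 17.3% (13.6 to 21.7) of KO only promoters, against 17.0% of all. The converse, CTCF in KO and not in WT, held at 1300 promoters marked in both (11%, 10.4 to 11.6). It held at 1 WT only (0.457%) and 1 KO only promoter (0.299%), and at 0.19% of unmarked promoters. The order of WT only above both in WT CTCF turned around under 3 of 9 alternatives, with all start sites, with peaks of −log10 q of at least 10 and with equal numbers of peaks.

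Among the marked classes SMC1, like CTCF, was least frequent at KO only promoters. Unmarked promoters had lower shares still, with SMC1 at 10.7% in WT and 4.01% in KO. CTCF was at 13.6% of unmarked promoters in WT and 3.76% in KO. In WT it was present at 43.4% (37 to 50) of WT only, 46.9% of both and 19.1% (15.3 to 23.7) of KO only promoters, against 31.8% of all, and in KO at 16.9%, 36.6% and 5.67%, against 22.7% of all. The WT list held an SMC1 peak that the KO list lacked at 27.4% (21.9 to 33.7) of WT only, 18.4% of both and 14.3% (11.0 to 18.5) of KO only promoters, against 14.1% of all. An SMC1 peak in KO that WT lacked was at 966 promoters marked in both (8.16%, 7.68 to 8.67). It was at 2 WT only (0.913%) and 3 KO only promoters (0.896%), and at 1.07% of unmarked promoters.

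**Figure D4:**
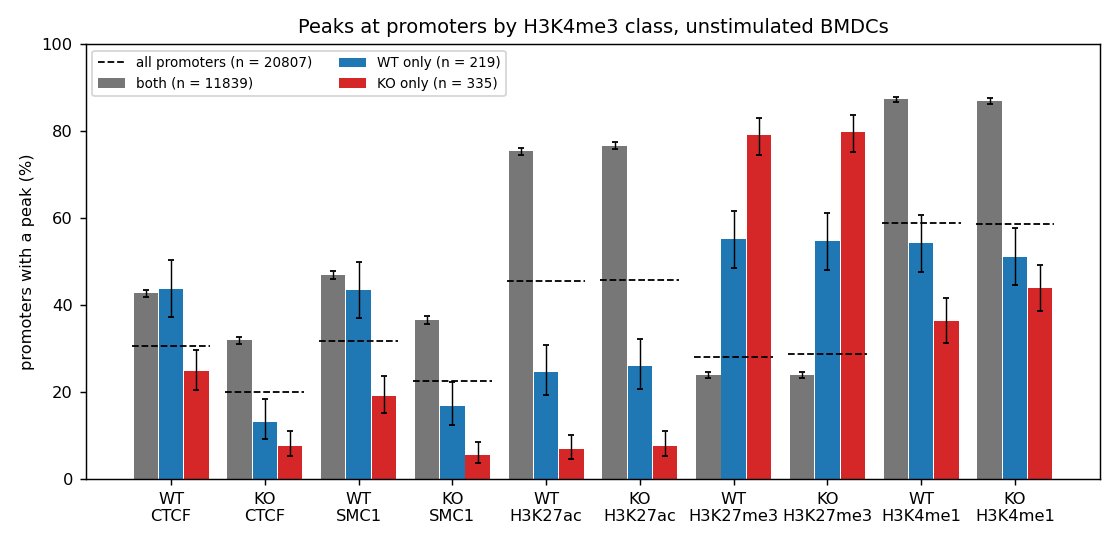
Share of promoters (%) with a peak of each antibody in WT or KO, by H3K4me3 class (bars, 95% Wilson intervals), with the share of all 20807 promoters as a dashed line. H3K27me3 is present at 79.1% of KO only promoters in WT and 79.7% in KO, and H3K27ac at 75.4% and 76.6% of promoters marked in both.

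Read from CTCF, loss of H3K4me3 was rare wherever CTCF was lost. Of the 2632 promoters with WT H3K4me3 whose WT CTCF peak was missing from KO, 68 were WT only (2.58%, 2.04 to 3.26). The share was 1.11% (0.772 to 1.6) of 2514 promoters that kept a CTCF peak and 1.78% (1.49 to 2.12) of 6912 without CTCF in WT. H3K4me3 strength moved with these groups, with a median WT −log10 q of 75.6, 90.9 and 79.0 in the same order, and its part in the difference was not tested. Among promoters without WT H3K4me3, KO only ones were 6.44% (5.01 to 8.23) of 901 that lost CTCF, 7.69% (5.26 to 11.1) of 325 that kept it and 3.35% (2.97 to 3.78) of 7523 without it. CTCF loss thus went with WT only promoters more often than CTCF retention did, and with KO only promoters about as often, with overlapping intervals. For WT only promoters the intervals of lost CTCF and of no CTCF in WT also overlapped. Retention means only that a peak was still called in KO. Among promoters with WT H3K4me3, lost CTCF peaks were weaker in WT (median −log10 q 18.2) than kept ones (57.4), and the part of this was not tested.

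The genes with the strongest CTCF peaks lost in KO had H3K4me3 of differing strength. Among WT only promoters these included Art4, Oas2, Scnn1g and Cdh5, and among KO only promoters Olfr94, Scube1, C2cd4b and Mfge8. Oas2, an interferon-induced sensor of double-stranded RNA, was covered by H3K4me3 over 1439 bp in WT, 0 bp in KO, 2343 bp in WTLPS and 857 bp in KOLPS. Scnn1g, a sodium channel subunit, was covered over 1022 bp in WT and 961 bp in WTLPS and over 0 bp in KO and KOLPS. Mfge8, a secreted protein that bridges phagocytes to dying cells, was covered over 508 bp in KO and 508 bp in WTLPS and over 0 bp in WT and KOLPS, so its difference turned around after LPS.

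A short form of the CTCF core motif, CCANNAGNNGGC on either strand, where N is any base, lay within 100 bases of the CTCF summit at the 6 genes shown. They are printed because each belongs to a WT CTCF peak that reached the window of a promoter whose H3K4me3 differed. No KO CTCF peak reached that window. Each is 30 bases of mm10, read 5′ to 3′ along the strand of the motif, with the 12 bases of the motif in capitals.
Art4, WT only: agacttagaCCAGTAGAGGGCagcaggaac
Cdh5, WT only: aggagggagCCAGAAGATGGCattagatcc
Oas2, WT only: tgtatgatgCCACCAGATGGCgatagattt
Mfge8, KO only: cccatgtggCCAGCAGGTGGCgccatggct
Nuggc, KO only: tgaaaatcgCCAGGAGAGGGCaggctaagc
Olfr94, KO only: atcatttagCCACAAGGTGGCagcatgaac
The Art4 site is at chr6:136861168-136861197 (plus strand) between genes, Cdh5 at chr8:104099117-104099146 (plus) in an intron of Gm29682, and Oas2 at chr5:120746630-120746659 (minus) within Oas2 and in an exon of Gm43068. The Mfge8 site is at chr7:79141031-79141060 (plus) in an intron of Mfge8, Nuggc at chr14:65597206-65597235 (plus) between genes, and Olfr94 at chr17:37203809-37203838 (minus) between genes. The sites lay 1325 to 3450 bp from the start of the gene and 4 to 24 bases from the summit. Those of Art4 (3450 bp), Oas2 (3208 bp), Olfr94 (2830 bp) and Mfge8 (2740 bp) were outside the window of 2.5 kb. Only part of their CTCF peak overlapped the window, and KO CTCF at these sites themselves was not examined. This motif stood within 100 bases of the summit at 34.4% of WT CTCF peaks at WT only promoters, 33.7% at KO only, 32.9% at both and 34.4% over all promoters with CTCF, and the intervals of the classes overlapped. Within 250 bp before to 50 bp after the start, 6.85% (4.19 to 11.0) of WT only, 1.79% (0.823 to 3.85) of KO only, 2.96% (2.67 to 3.29) of both and 2.53% of all promoters held it.

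CpG content differed between the classes and was not used to form them. In the same 300 bases the median observed over expected CpG was 0.772 at promoters marked in both, 0.575 at KO only, 0.366 at WT only and 0.195 at unmarked promoters, against 0.550 over all. A sequence was called like a CpG island at a GC content of at least 50% and a ratio of at least 0.6. This held for 69.5% (68.7 to 70.4) of both, 45.4% (40.1 to 50.7) of KO only, 23.7% (18.6 to 29.8) of WT only and 8.15% (7.59 to 8.76) of unmarked promoters. The share of all promoters was 43.8% (43.2 to 44.5), which lies within the KO only interval. Among these island-like promoters alone, H3K27me3 in WT was at 141 of 152 KO only (92.8%, 87.5 to 95.9), 46 of 52 WT only (88.5%, 77 to 94.6), 23.0% (22.1 to 24.0) of both and 69.7% (66.1 to 73.0) of unmarked promoters. It was at 28.1% (27.2 to 29) of all island-like promoters. The share of H3K27me3 in the WT only and KO only classes was therefore above that of promoters marked in both also among island-like promoters.

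**Figure D5:**
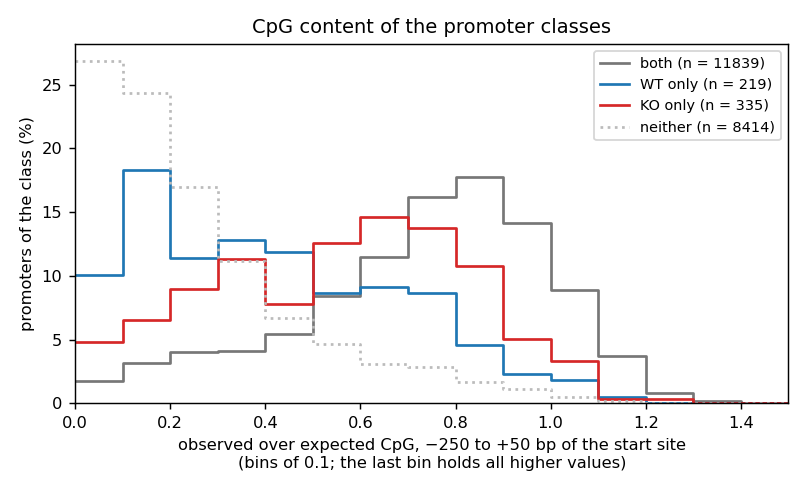
Distribution of the observed over expected CpG ratio in the 300 bases around the start site, as the share (%) of promoters of each class in bins of 0.1. Medians run from 0.195 (neither) through 0.366 (WT only) and 0.575 (KO only) to 0.772 (both).

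Developmental regulators were more often KO only than WT only. This family list was drawn up after the members had been seen, and its counts are a description. Of 154 genes of the forkhead, Sox, Gata, Pax, LIM, Olig, Zic and related families, 15 were KO only (9.74%, against 1.61% of all promoters) and 3 were WT only (1.95%, against 1.05%). Among them were Foxa2, Foxc2, Foxi3, Gata4, Olig2, Sox1, Tbx18, Twist1 and Zic2. Of the 15, 14 carried H3K27me3 in WT and 8 recurred after LPS. Foxi3 was covered over 2231 bp in KO and Zic2 over 1823 bp. Secreted ligands of the Wnt, Bmp, Fgf and Gdf families had 5 KO only members of 60 (8.33%), namely Bmp4, Fgf4, Fgf8, Fgf12 and Wnt16, and 1 WT only member, Wnt3.

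The 39 Hox genes, which set position along the body axis, were 15 in both and 16 in neither. WT only were 3 (7.69%, against 1.05% of all promoters) and KO only 5 (12.8%, against 1.61%). Hoxd12 and Hoxd13, neighbours at one end of their cluster, were WT only, before and after LPS. Hoxd12 was covered over 664 bp in WT and 560 bp in WTLPS, and its WT CTCF peak was missing from KO, while Hoxd13 was covered over 296 and 452 bp. At Hoxc10 and Hoxd12 the peak was shared with KO outside the window. Hoxa5 and Hoxb6 were KO only before and after LPS, with 715 and 336 bp in KO. Hoxa10 and Hoxd9 were KO only before and WT only after LPS, and Hoxc5 was KO only before LPS and unmarked after it.

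The clustered protocadherins, adhesion proteins of neurons whose promoters are textbook sites of CTCF binding, had 5 WT only members of 57 (8.77%, against 1.05% of all promoters) and no KO only member (1.61% of all). These were Pcdhga5, Pcdhga11, Pcdhga12, Pcdhgb6 and Pcdhgb7, all of the gamma cluster, with 2 further members marked in both and 50 in neither. Pcdhga5 was covered over 776 bp in WT and 545 bp in WTLPS, Pcdhgb6 over 509 and 408 bp, and Pcdhga12 over 484 and 655 bp, each with 0 bp in KO and KOLPS. Pcdhga11 had 244 bp and Pcdhgb7 379 bp in WT alone. Each had 7 to 11 fragments in WT, and each had a WT CTCF peak that was missing from KO except Pcdhgb7, which kept one.

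Immune families, also drawn up after the members were seen, did not all lean one way. Over all promoters 1.05% were WT only and 1.61% KO only. Interferon-induced genes had 4 WT only members of 50 (8.00%), Ifi47, Ifit3, Ifitm1 and Oas2, and no KO only member. C-type lectins had 3 of 56, Clec10a, Clec1b and Klrb1b, each of them WT only after LPS as well, and chemokines with their receptors had 2 of 54, Cxcl3 and Cxcr2, again with no KO only member. Interleukins and their receptors had 1 WT only (Il27) and 2 KO only (Il13 and Il18r1) of 77, and the SLAM genes 1 of each of 5. Cxcl3, a neutrophil chemokine, was covered over 2192 bp in WT, and after LPS it was marked in both genotypes. Il27 was covered over 1768 bp in WT, 0 bp in KO, 4449 bp in WTLPS and 1346 bp in KOLPS. Saa3 was covered over 310 bp in WT and 1883 bp in WTLPS and over 0 bp in KO and KOLPS.

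Other lists had few members in the classes, beside 1.05% WT only and 1.61% KO only over all promoters. Of 19 genes of the retinoid pathway list, Crabp2, which carries retinoic acid, was WT only and Aldh1a3, which makes it, was KO only, and both were marked in WTLPS and KOLPS. Of 35 imprinted genes, Kcnq1 was WT only and Gnas KO only, neither marked after LPS. Solute carriers had 7 KO only members of 358 (1.96%), near the share over all promoters, all 7 with H3K27me3 in WT, as 79.1% of KO only promoters had, and 1 WT only member, Slc29a4. Zfp zinc finger genes had 1 WT only and 2 KO only of 385, olfactory receptors 2 and 1 of 1128, keratins 1 (Krt222) and 1 (Krt8) of 110, and numbered gene models 14 and 8 of 1226. There was no WT only or KO only promoter among 66 histone genes, 329 vomeronasal receptors, or the 16 genes of H3K4 methylation and 19 of CTCF and cohesin that lie on these chromosomes.

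Where both genotypes were marked, the covered part of the window was mostly alike. The median cover was 2937 bp in WT (quartiles 2141 to 3596) and 3056 bp in KO (2260 to 3715), and the median difference, KO minus WT, was 93 bp, with 5% of promoters below −600 bp and 5% above 927 bp. Cover was wider in KO at 59.3% (58.4 to 60.2), equal at 1.18% and wider in WT at 39.5%. With 1 kb to either side the shares were 37.8% wider in KO, 36.1% equal and 26.1% wider in WT, the equal promoters being almost all covered from end to end. After LPS the order was the reverse, with medians of 2682 bp in WTLPS and 2535 bp in KOLPS, and 4378 promoters wider in KOLPS against 7353 wider in WTLPS. The whole KO list covered 44.7 Mb of these chromosomes against 42.8 Mb in WT, and KOLPS 35.0 Mb against 38.9 Mb in WTLPS, so the small shift of all promoters moved with the covered length of the lists, whose part in it was not tested.

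Larger differences were at few promoters and mostly kept their direction after LPS, by any number of bases. At 458 promoters (3.87%) KO covered at least 1000 bp more than WT, and at 145 (1.22%) at least 1000 bp less. KOLPS covered more than WTLPS at 315 of the 458 and less at 143, with a median difference of 278 bp. Of the 145, KOLPS covered less at 134 and more at 10, with a median of −823 bp. For all 11839 promoters marked in both, KOLPS covered more at 4378 and less at 7353, with a median of −119 bp. Of the promoters with a gain 57.4% carried H3K27me3 and 45.4% H3K27ac in WT, and of those with a loss 17.9% and 81.4%, against 24.0% and 75.4% of all promoters marked in both. Gains thus lay at promoters with H3K27me3 more often than losses did, as KO only promoters did more often than WT only ones.

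The 8 promoters with the most additional covered bases in KO were Tril, Smo, Sdk1, Fat1, Adcy6, Insm1, Chst3 and Adamts1. Tril, an accessory protein of Toll-like receptor signalling, was covered over 345 bp in WT, 3522 bp in KO, 494 bp in WTLPS and 3081 bp in KOLPS. Smo, the signal transducer of the Hedgehog pathway, was covered over 1157 bp in WT, 4008 bp in KO, 1489 bp in WTLPS and 1748 bp in KOLPS. Fat1, a giant cadherin, went from 577 bp in WT to 3256 bp in KO, and from 466 bp in WTLPS to 2140 bp in KOLPS. At Tril and Fat1 a WT CTCF peak was missing from KO, and H3K27me3 covered less of the window in KO, 2659 against 3885 bp at Tril and 2859 against 3851 bp at Fat1.

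Chst3, which encodes a chondroitin sulfotransferase, was the one of these 8 with wider H3K27ac in KO, whereas at Adcy6 H3K27ac covered 2318 bp in WT and 457 bp in KO. H3K4me3 covered 2174 bp in WT, 4784 bp in KO, 2765 bp in WTLPS and 3507 bp in KOLPS. H3K27ac covered 1672 bp in WT and 4203 bp in KO, H3K27me3 1323 bp in WT and 0 bp in KO, and its WT CTCF peak was missing from KO. Aldh1a2, the enzyme that makes retinoic acid in dendritic cells, changed less in cover, from 3629 to 4292 bp, but its strongest peak went from 40 to 72 fragments, and from 30 fragments in WTLPS to 52 in KOLPS. In rank within its own list that peak stood at percentile 61.7 in WT and 91.4 in KO, and 55.3 in WTLPS and 89.2 in KOLPS.

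The 8 promoters with the most covered bases missing in KO were Nfe2, F10, Aldh3b1, Spn, Fpr1, Ltb4r1, Elmo2 and Il18rap. Fpr1, the receptor for bacterial formyl peptides, was covered over 3509 bp in WT, 1370 bp in KO, 3164 bp in WTLPS and 1488 bp in KOLPS. Ltb4r1, the leukotriene B4 receptor of leukocytes, was covered over 3903, 1770, 3481 and 873 bp in the same order, and Il18rap, a chain of the interleukin 18 receptor, over 2834, 776, 2478 and 0 bp. Nfe2, a transcription factor of platelets and red cells, was covered over 3007, 715, 2287 and 55 bp. Spn encodes a sialoprotein of leukocytes and F10 a clotting factor. All 8 were wider in WTLPS than in KOLPS, all 8 carried H3K27ac in WT and in KO, and none carried H3K27me3. Of the 33 promoters of the myeloid list marked in both, Itgam, Fcgr1 and Cx3cr1 were among the 145, and of 29 cell cycle promoters Aurkb and Plk1, against 1.22% of all promoters marked in both.

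By rank within the list, the promoters furthest lower in KO were Pgd, B4galt2, F7, Zbtb7b, Hp, Cracr2a and the shared promoter of 3110070M22Rik and Tmem267. Zbtb7b, a transcription factor of T helper cell fate, stood at percentile 99.8 in WT, 51.0 in KO, 99 in WTLPS and 35.1 in KOLPS, where its strongest peak had 12 fragments against 98 in WTLPS. Hp, haptoglobin, stood at 49.7 in WT, 3.03 in KO, 50.7 in WTLPS and 3.44 in KOLPS. F7, a clotting factor next to F10 on chromosome 8, went from 37 fragments in WT to 7 in KO, with no peak in KOLPS. At Pgd a strong peak touched 560 bp of the window in WT, and B4galt2 did not keep the difference after LPS, at 75.7 in WTLPS and 92.8 in KOLPS.

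The promoters furthest higher in KO by rank were Abhd16b, Tymp, Cfap300, Mylpf, Npr3, Id4, Sdk1 and Tmeff2. Tmeff2, a transmembrane protein with follistatin domains, stood at percentile 6.24 in WT (7 fragments) and 49.8 in KO (17), and at 34.1 in WTLPS and 41.4 in KOLPS. Id4, an inhibitor of helix-loop-helix factors, stood at 1.28 in WT and 45.3 in KO, and at 20.5 and 35.1 after LPS. After LPS the difference was gone or small at 4 of the 8. Tymp stood at 72.7 in WTLPS and 66.9 in KOLPS, Npr3 at 26.4 and 27.6, Mylpf at 30.9 and 35.1, and Abhd16b was unmarked. Of the 8, Cfap300, Id4, Npr3, Sdk1 and Tmeff2 carried H3K27me3 over at least 1000 bp in both genotypes and no H3K27ac.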

How the data were processed

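ChIP-seq libraries of BMDCs had been made by tagmentation and sequenced in pairs. Per the methods and the reporting summary, the authors passed reads through Trim Galore, bwa (mm10 build) and picard, which took out duplicates, and MACS2 then called peaks in paired-end mode with input as control. The submitters' processing notes name BWA 0.7.12, Picard 1.77 and MACS2 2.1.2. The methods say that peaks were called for each replicate and the reporting summary that replicates were merged, so which of these a list holds is not settled. Each deposited list gives for every peak a fold, which is the ratio of fragments over a local background, together with the −log10 p and −log10 q that the authors' peak caller wrote. Such values depend on depth. Ranks are percentiles within a list, and fragments or −log10 q of 2 lists stand side by side without correction for depth, at backgrounds of 1.13 to 1.23 fragments per base. A list can be shorter where depth or enrichment is lower, and CTCF and SMC1 lists were cut at a stricter significance than the histone lists.

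Of 34 samples, 14 lists were used (WT and KO lists of CTCF, SMC1, H3K27ac, H3K27me3, H3K4me1 and H3K4me3, and both LPS lists of H3K4me3), grouped by the labels. The 4 inputs, the other LPS lists and those of other factors were left out. Start sites came from GENCODE release M 21, that of the transcript with the longest summed exons. Chromosomes X and Y were left out because the labels give no sex. Promoter windows and peaks were joined with an overlap of 1 bp in Python 3.11.15 with pandas 2.3.3 and SciPy 1.17.1, a join tested on simulated peaks. Whole fragments at the summit were recovered from fold and −log10 p, which agreed within 0.002 for at least 99.986% of peaks under a −log10 p of 25. Depth as total reads is not in the lists, and background fragments per base stand in for it.

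Shares carry 95% Wilson intervals, with no test between conditions. Members named were the strongest of each class, those that recurred after LPS, those with the strongest lost CTCF peaks, the largest changes in cover or rank, members of the gene lists, and those just inside or outside a class. Members and lists were chosen with earlier results of these data known, and family lists were added after members had been seen. The alternatives were 1 kb windows, all start sites, stricter or equally many peaks, an overlap of 200 bp and merged windows, and 3 more chosen after seeing the data: the longest genomic span, the summit in the window, and leaving out peaks shared outside the window. Motifs and CpG were read from the mm10 sequence.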

Additional observations from a re-analysis of the deposited data

Results flagged for a closer look

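The balance between the genotypes turned around with LPS. Promoters with H3K4me3 numbered 116 more in KO than in WT, and the difference KOLPS minus WTLPS was −173, in libraries whose covered length changed in the same direction. The difference between these differences was not tested, since each condition had 1 list.

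At 5 WT only promoters (2.28%, against 0.932% of all promoters), Dhh, Gm7102, Gpr149, Has2 and Wnt3, the peak after LPS was in KOLPS alone. Has2, a hyaluronan synthase, was covered over 205 bp in WT and 1011 bp in KOLPS, and over 0 bp in KO and WTLPS. At 36 KO only promoters (10.7%, against 1.76% of all promoters) the peak after LPS was in WTLPS alone. Among them were Thy1, a surface protein of T cells and fibroblasts, with 228 bp in KO and 473 bp in WTLPS, the cytokine gene Il13, with 337 and 244 bp, and the adhesion gene Jam3, with 209 and 649 bp. Whether the difference itself changed with LPS at these promoters was not tested.

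On chromosome X, which was left out of the classes, 357 of 948 promoters were marked in both lists, 12 in WT only and 20 in KO only. On chromosome Y, 4 of 183 promoters were marked in WT only and none in KO. The paper used mice of both sexes and describes its WT controls as littermates matched by age and sex. The sex of the animals behind each list is not recorded, and whether it was the same in WT and KO was not tested. If it differed, sex and genotype could not be told apart in any comparison of WT with KO.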

How the results depend on the processing

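The WT only class held 195 to 290 promoters and the KO only class 306 to 395 over 9 alternatives, all within 1.5 times the reported counts, and KO only outnumbered WT only in each. Under all of them H3K27me3 in WT ran from KO only through WT only to both, and H3K27ac in the opposite order. Of 308 values compared over the alternatives, 224 stayed near the reported value (within its interval, or a count within 1.5 times) and 84 moved. For promoters marked in both, 38 of 90 shares moved, with intervals that are narrow at this number. Among them, WT CTCF ranged from 28 to 57.7%, WT H3K27ac from 73.8 to 80.8% and WT H3K27me3 from 15.5 to 27.9%. The other 218 values, those of the WT only and KO only classes with the counts, the retained shares and the wider cover, moved in 46 cases, all listed here. None of these 218 moved with overlapping windows merged, with 200 bp covered, with equal numbers of peaks, with the longest genomic span or without promoters whose peak was shared outside the window. WT CTCF was more frequent at WT only promoters than at those marked in both under 6 of the 9 alternatives.

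With 1 kb to either side, WT only promoters had WT CTCF at 33.2%, KO SMC1 at 11.5%, and H3K27me3 at 41% in WT and 45.6% in KO. KO only promoters had CTCF at 13.6% in WT and 4.11% in KO, SMC1 at 9.18% and 2.53%, KO H3K27ac at 4.43% and KO H3K27me3 at 72.8%. Cover was wider in KO at 37.8% of promoters marked in both, since many narrow windows were fully covered. With all start sites, a WT peak was present at 97.6% of KO promoters. WT only promoters then had CTCF at 53.1% in WT and 18.8% in KO, WT SMC1 at 52.7%, and H3K27me3 at 64.3% and 64.7%. KO only promoters had WT CTCF at 34.2%, SMC1 at 26.8% in WT and 9.35% in KO, and H3K27me3 at 85.2% and 86.5%. By construction these promoters span more sequence.

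With H3K4me3 peaks of −log10 q of at least 10 in WT and KO, a KO peak was present at 97.7% of WT promoters. WT only promoters had WTLPS peaks at 96.1%, KOLPS peaks at 76% and WT H3K27ac at 33.3%. KO only promoters had KOLPS peaks at 94.1%, WTLPS peaks at 89.9%, KO SMC1 at 8.88%, KO H3K27ac at 12.1%, and H3K27me3 at 85.5% in WT and 83.7% in KO. Weaker peaks in the other list then counted as absent, so these classes mixed gradual with complete differences. With the summit in the window, the retained shares were 97.6% of WT and 96.7% of KO promoters. WT only promoters had H3K27ac at 37.6% in WT and 38.3% in KO, H3K27me3 at 45.9% and 46.6%, KOLPS peaks at 32.8% and KO SMC1 at 24.5%. KO only promoters had H3K27ac at 17.7% and 18.5%, H3K27me3 at 70.1% and 70.6%, KO CTCF at 11.1% and KO SMC1 at 9.87%. No paired analysis was possible because each condition had 1 list. With no replicate, peaks of 6 to 12 fragments cannot be told from the spread between libraries.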

Other observations

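Potassium channels, drawn up as a family after the members were seen, had 4 KO only members of 91 (4.4%), Kcnc2, Kcng2, Kcnk10 and Kcnq3, all 4 with H3K27me3 in WT. Kcnk10 was covered over 2126 bp in KO and 493 bp in KOLPS, and Kcnq3 over 1830 and 1452 bp, with 0 bp in WT and WTLPS. Over all promoters 1.61% were KO only, and of KO only promoters 79.1% had H3K27me3 in WT.

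Among promoters marked in both, 3.87% were covered by at least 1000 bp more in KO (gains) and 1.22% by at least 1000 bp less (losses). Of 22 such chemokine and receptor genes, 2 were gains (Ccl5, Cxcl1) and 1 a loss (Cx3cr1). Of 35 interleukin and receptor genes, 2 were gains (Il2ra, Il7) and 1 a loss (Il18rap). The 18 genes of GM-CSF and STAT5 signalling had 2 gains (Il2ra, Socs2) and 0 losses. Among 27 potassium channels 6 were gains, such as Kcna2 and Kcnh3, and 1 a loss (Kcna7). C-type lectins had 0 gains and 2 losses (Klra2, Klrk1) of 21, and interferon-induced genes 1 gain (Gbp8) and 2 losses (Oas1g, Oas3) of 30. Developmental regulators had 11 gains, such as Lhx2, Sox21 and Zic5, and 0 losses of 91. Ordered by H3K27me3, the difference recurred after LPS at 82 of 255 KO only promoters with H3K27me3 in WT (32.2%, 26.7 to 38.1) and at 6 of 59 without it (10.2%, 4.74 to 20.5), leaving out peaks shared outside the window. WT only promoters ran the other way, with overlapping intervals, at 54 of 114 with H3K27me3 (47.4%, 38.4 to 56.5) and 49 of 90 without it (54.4%, 44.2 to 64.3). By CTCF, WT only promoters recurred at 39 of 63 where it was lost (61.9%, 49.6 to 72.9) and at 51 of 114 without it (44.7%, 35.9 to 53.9). KO only promoters had the reverse order, at 10 of 52 (19.2%, 10.8 to 31.9) and 72 of 237 (30.4%, 24.9 to 36.5). In both classes the intervals by CTCF overlapped.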
